A study of Mus musculus with 8 samples.

Results

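The RNA of 10 neuropeptide genes was followed in the hippocampus of 8 female mice: Npy, Sst, Cort, Cck, Vip, Crh, Penk, Pdyn, Tac1 and Tac2. The genes were chosen by name, and their probes were found through the RefSeq accessions in the scanner output. They are 10 of 21368 genes named on the array, and all 10 were among the 16618 genes bright enough to be tested. Each mouse had 1 Agilent 1-colour expression array, for which 200 ng of RNA was labelled with Cy3. All mice were nontransgenic littermates from a transgenic line and were kept on a C57BL/6J background. The 4 Control mice were untreated and 19 weeks old. The 4 Hydroxyurea mice drank water giving 45 mg/kg/day of hydroxyurea, an inhibitor of ribonucleotide reductase, for 2.5 months, begun when they were 9 to 14 weeks old. Hydroxyurea 1 and 2 were 24 weeks old at the end, and Hydroxyurea 3 and 4 were 19 weeks old. No group carried a transgene.

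Neuropeptides are cut from larger precursor proteins inside dense-core granules and act through G protein-coupled receptors. In the hippocampus several of them mark classes of GABA-releasing interneurons, while dynorphin is made by dentate granule cells and stored in their mossy fibres. Transcription of several peptide genes responds to cyclic AMP through a promoter element bound by CREB.

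The promoters that hold this element are shown first because it is a feature the choice of genes did not use. RefSeq windows (GRCm38.p6) were found for 8 of the 10 genes, and Penk and Crh are named only. The 8 genes have 9 windows, as Pdyn has more than 1. The full element TGACGTCA, searched on both strands in the 250 bases before each start, was in 1 of the 9 windows, against 1.55% of 32851 windows. Its core TGACG, which the full element contains, was in 5 of the 9 (in 5 of the 8 genes), against 17.8% of windows. The AP-1 site TGANTCA was in 0 of the 9, against 6.75%. The bases next to the start are printed 5′ to 3′ on the gene's strand, with the core or full element in capitals; CGTCA is the core read from the other strand.
Sst, chr16:23890845-23890944, minus strand: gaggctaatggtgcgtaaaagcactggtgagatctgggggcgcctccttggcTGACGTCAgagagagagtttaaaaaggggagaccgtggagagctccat
Vip, chr10:5639118-5639192, plus strand: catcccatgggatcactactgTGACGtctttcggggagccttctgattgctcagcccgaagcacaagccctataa
Cck, chr9:121495695-121495794, minus strand: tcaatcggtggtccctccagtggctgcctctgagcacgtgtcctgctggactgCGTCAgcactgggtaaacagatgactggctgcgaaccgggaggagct
Tac1, chr6:7554961-7555060, plus strand: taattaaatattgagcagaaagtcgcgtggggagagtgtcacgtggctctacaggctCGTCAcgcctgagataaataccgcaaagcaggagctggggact
Cort, chr4:149126764-149126863, minus strand: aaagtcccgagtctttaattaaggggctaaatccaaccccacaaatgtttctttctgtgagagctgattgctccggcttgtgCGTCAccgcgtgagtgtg
In Sst the full element lies 48 to 41 bases before the start used here, and a longer annotated transcript model of the gene begins further upstream. The Vip stretch stops 25 bases short of the start in its promoter entry, because the annotated gene begins there. Tac1 holds a second core 197 to 193 bases before the start, outside the stretch printed. A match describes letters only and shows no binding.

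For treatment, 0 of the 10 genes reached an adjusted p under 0.05. The gene with the clearest separation was Crh, 1.20-fold lower in treated mice, and Pdyn had a ratio of 0.793. Values are given as scaled log2: the log2 signal of a probe less the log2 signal at the 75th percentile of its array, so that 0 is that percentile. In the limma fit of all genes, 0 of 16618 genes (0%) passed after Benjamini-Hochberg adjustment, and the smallest adjusted p was 0.452. Before adjustment, 1057 genes were lower at a p under 0.05 (6.36%) and 586 were higher (3.53%). Of the 10 neuropeptide genes, 1 (Crh) was in the lower set and 0 in the higher. The groups did not overlap for 1 of the 10, again Crh and lower, against 5.11% of all genes lower and 2.38% higher. By sign, 7 of the 10 had a lower mean in treated mice, against 51.3% of all genes, and their median difference was -0.15, against -0.0038 over all genes. Centring each array on its median moved all genes down, to a median of -0.086 with 70.4% below 0, and then 9 of the 10 were lower, with a median of -0.23. It also moved the share of lower genes among those with an unadjusted p under 0.05 from 64.3% to 90.8%. A single gene of 10 is near these background shares and is no result about the neuropeptide genes as a set. Control arrays lay in 1 row of the slide and treated arrays in the other, so row and treatment cannot be told apart. Whole tissue was used, so fewer cells of a type and less RNA per cell cannot be told apart.

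**Figure D1:**
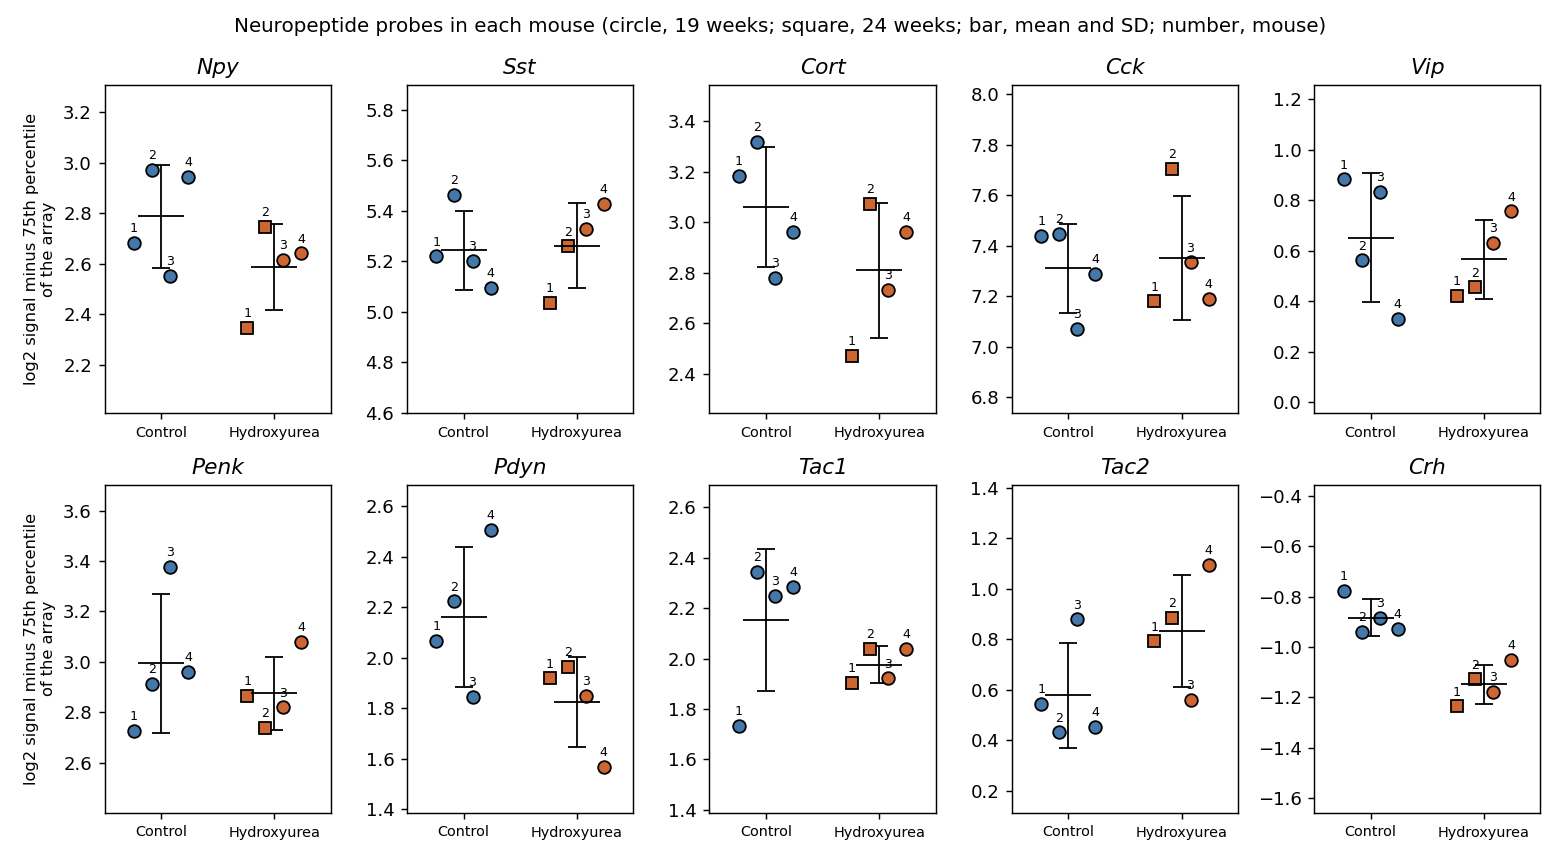
Scaled log2 signal of each neuropeptide gene (vertical axis, each panel spanning the same range) in every Control and Hydroxyurea mouse, with circles for 19 weeks, squares for 24 weeks, the mouse number above each point and bars for the mean and SD. The groups overlap in 9 of the 10 panels, and in the Crh panel all treated mice lie below all Control mice.

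Crh encodes corticotropin-releasing hormone, which starts the stress hormone axis and in the hippocampus is made by interneurons. Its scaled log2 signal was -0.78, -0.94, -0.88 and -0.93 in Control mice 1 to 4, and -1.24, -1.13, -1.18 and -1.05 in Hydroxyurea mice 1 to 4. Every treated mouse was below every Control mouse, and the gap between groups was narrower than the spread within either. The mean was -0.88 ± 0.07 in Control and -1.15 ± 0.08 in treated mice (SD, n = 4 each), a difference of -0.27 ± 0.07 (SE; 95% interval -0.42 to -0.11), or 1.20-fold lower. The unadjusted limma p was 0.00381 and the adjusted p was 0.452, so the difference did not pass. The groups also stayed apart with quantile, median and normexp scaling, and the share of all genes without overlap under those scalings was not counted.

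Npy encodes neuropeptide Y, an inhibitory peptide of dendrite-targeting interneurons. Its scaled log2 signal was 2.68, 2.97, 2.55 and 2.94 in the Control mice and 2.35, 2.75, 2.62 and 2.64 in the treated mice. Control 2 and 4 were the highest of the 8 and Hydroxyurea 1 the lowest, with overlap between the groups. The difference was -0.20 ± 0.12 (SE; 95% interval -0.49 to 0.09; limma adjusted p = 0.604). It was -0.12 without Hydroxyurea 1, -0.11 with normexp and -0.34 with array weights. Sst encodes somatostatin, made in many of the same cells, and its probe is printed at 10 spots on each array. It read 5.22, 5.46, 5.20 and 5.09 in the Control mice and 5.03, 5.26, 5.33 and 5.43 in the treated mice. The highest Sst value came from a Control mouse and the lowest from a treated mouse, with the rest interleaved. Sst differed by 0.02 ± 0.11 (SE; 95% interval -0.24 to 0.27; limma adjusted p = 0.967), an interval that leaves room for small changes either way. The sign of the Sst difference turned with median centring (-0.06).

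Cort encodes cortistatin, a relative of somatostatin found in a subset of interneurons. Its scaled log2 signal was 3.18, 3.32, 2.78 and 2.96 in the Control mice and 2.47, 3.07, 2.73 and 2.96 in the treated mice. Hydroxyurea 1 was the lowest and Control 2 the highest, as for Npy and Sst. Cort differed by -0.25 ± 0.16 (SE; 95% interval -0.63 to 0.12; limma adjusted p = 0.619). It was -0.14 without Hydroxyurea 1 and -0.17 without Control 2. Cck encodes cholecystokinin, made by basket cells and by many pyramidal cells. It read 7.44, 7.45, 7.07 and 7.29 in the Control mice and 7.18, 7.70, 7.33 and 7.19 in the treated mice. The highest scaled value was that of Hydroxyurea 2, whose array had the lowest 75th percentile (a signal of 1052, against 1677 to 2417 on the other arrays) and the lowest unscaled Cck signal (219470). The difference in Cck was 0.04 ± 0.14 (SE, 95% interval -0.28 to 0.36, limma adjusted p = 0.936), with overlap between the groups. Its sign turned under other scalings, to -0.11 with quantile scaling and to -0.04 with median centring. With quantile scaling the Cck groups did not overlap, and the share of all genes without overlap there was not counted.

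Vip encodes vasoactive intestinal peptide, the marker of interneurons that inhibit other interneurons. Its scaled log2 signal was 0.88, 0.56, 0.83 and 0.33 in the Control mice and 0.42, 0.45, 0.63 and 0.76 in the treated mice. Both the lowest and the highest value were from Control mice, and the treated mice lay between them. The difference was -0.09 ± 0.14 (SE; 95% interval -0.41 to 0.23; limma adjusted p = 0.847). It was 0.04 among 19-week mice alone, and ran from -0.19 without Control 4 to -0.0092 without Control 1.

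Pdyn encodes prodynorphin, the precursor of the dynorphins, which act on kappa opioid receptors. Its scaled log2 signal was 2.07, 2.22, 1.84 and 2.51 in the Control mice and 1.92, 1.97, 1.85 and 1.57 in the treated mice. Control 4 was the highest and Hydroxyurea 4 the lowest, while Control 3 lay among the treated mice. The difference was -0.34 ± 0.15 (SE; 95% interval -0.68 to 0.01), a ratio of 0.793 (0.623 to 1.01), with a limma adjusted p of 0.514. It was -0.22 without Control 4 and -0.25 without Hydroxyurea 4. With median centring, which moved all genes down, the Pdyn groups did not overlap, and the share of all genes without overlap there was not counted. A second, dim Pdyn probe differed by -0.36 and was well above background on 4 Control arrays but on 1 treated array. The score of 11 tested dentate granule cell markers, the mean of their values relative to each gene's own mean, ran from -0.29 to 0.31 in Control mice and from -0.24 to 0.21 in treated mice. Control 4 had the highest dentate score and Hydroxyurea 4 the lowest of the treated mice, as for Pdyn, and the part of dentate content in the Pdyn values was not tested.

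Penk encodes proenkephalin, the precursor of the enkephalins. Its scaled log2 signal was 2.73, 2.91, 3.38 and 2.96 in the Control mice and 2.87, 2.74, 2.82 and 3.08 in the treated mice. Control 3 was the highest by a wide margin and the other 7 mice overlapped. Penk differed by -0.12 ± 0.14 (SE; 95% interval -0.45 to 0.21; limma adjusted p = 0.795), by 0.0089 without Control 3, by -0.21 without Control 1, by -0.19 without Hydroxyurea 4 and by -0.07 without Hydroxyurea 2.

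Tac1 encodes the precursor of substance P and neurokinin A. Its scaled log2 signal was 1.73, 2.34, 2.25 and 2.28 in the Control mice and 1.90, 2.04, 1.92 and 2.04 in the treated mice. Control 1 was the lowest of all 8, and the other 3 Control mice were above every treated mouse. The difference was -0.18 ± 0.13 (SE; 95% interval -0.49 to 0.13; limma adjusted p = 0.673). Without Control 1 it was -0.32, with an adjusted p of 0.231 in limma, and over all alternatives that p ran from 0.15 to 0.862. It was -0.11 without Control 2, -0.08 with normexp and -0.33 with array weights. The replicate spots of the Control 1 array varied most, with a median coefficient of variation of 12.9% against 3.72% to 4.44% on the other arrays. Tac2 encodes neurokinin B, the ligand of the neurokinin 3 receptor. It read 0.55, 0.43, 0.88 and 0.46 in the Control mice and 0.79, 0.89, 0.56 and 1.09 in the treated mice. Control 3 lay among the treated mice and Hydroxyurea 3 among the Control mice. Of the 3 genes with a higher mean in treated mice, Tac2 differed most, by 0.26 ± 0.14 (SE; 95% interval -0.07 to 0.58; limma adjusted p = 0.566), and by 0.17 without Hydroxyurea 4.

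**Figure D2:**
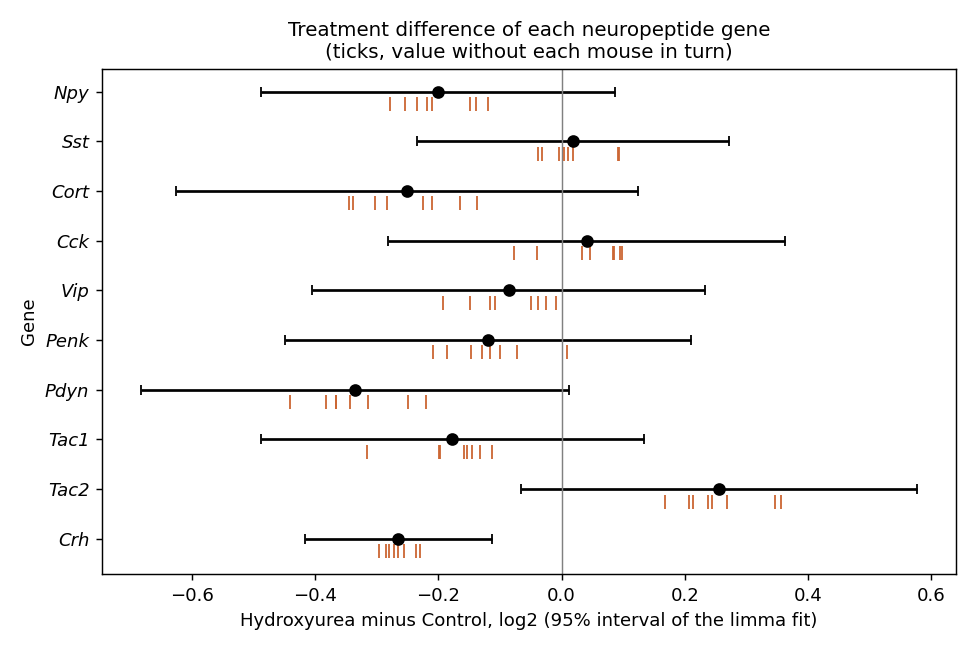
Difference of Hydroxyurea from Control mice in log2 units for each neuropeptide gene (horizontal axis), with the 95% interval of the limma fit as bars and the value without each mouse in turn as ticks. The Crh interval, -0.42 to -0.11, excludes 0 before adjustment, and that of Pdyn reaches 0.01.

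The treated mice were of 2 ages, compared as 24 minus 19 weeks in a limma fit with 3 group means (2 treated mice of each age). No Control mouse was 24 weeks old, and age at the end cannot be told apart from age at the start of treatment. None of the 10 genes had an unadjusted p under 0.05, and all adjusted p values were 1.0, while 449 of all genes (2.7%) had an unadjusted p under 0.05 and 0 (0%) an adjusted one. The differences ran from -0.26 ± 0.19 (SE) for Vip to 0.23 ± 0.21 for Pdyn. For Sst the difference was -0.23 ± 0.14. Without Hydroxyurea 4 the Pdyn value was 0.092 and without Hydroxyurea 3 it was 0.38, while Sst was -0.12 without Hydroxyurea 1. With the 19-week treated mice alone, the treatment difference was -0.23 for Crh and -0.45 for Pdyn. For Pdyn that value is larger in size than the value over all mice, and for Crh it is smaller.

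**Figure D3:**
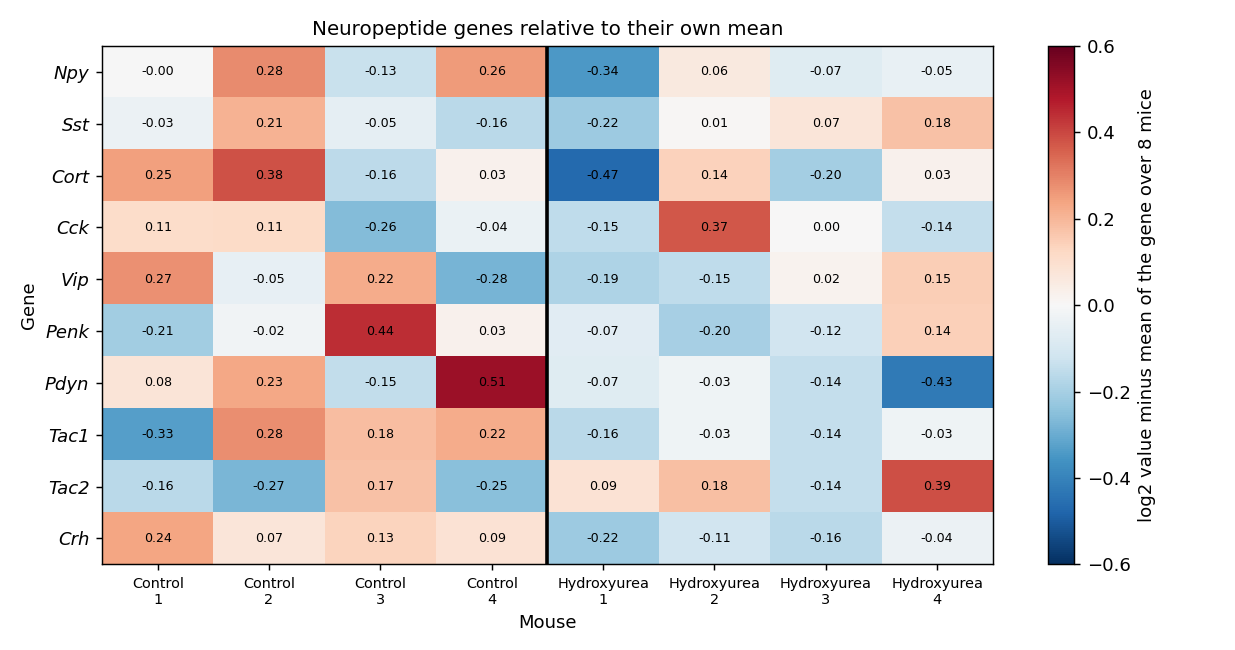
Scaled log2 signal of each neuropeptide gene in each mouse minus the mean of that gene over the 8 mice (colour and printed value), with a black line between Control and Hydroxyurea mice. Deviations run from -0.47 (Cort, Hydroxyurea 1) to 0.51 (Pdyn, Control 4).

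How the genes moved with each other was read over the 8 mice in 45 pairs, of which 28 had a positive and 17 a negative Pearson r. None passed after Benjamini-Hochberg adjustment over the 45, and 3 had an unadjusted exact permutation p under 0.05 by Pearson and 4 by Spearman. Pdyn and Tac2 had the most negative r (r = -0.816, exact permutation p = 0.0101, adjusted 0.322; rho = -0.810, exact permutation p = 0.0218, adjusted 0.446), and r was -0.663 without Control 4 and Hydroxyurea 4. Npy and Cort had the most positive r (r = 0.819, exact permutation p = 0.0143, adjusted 0.322; rho = 0.810, exact permutation p = 0.0218, adjusted 0.446), and r was 0.407 without both Control 2 and Hydroxyurea 1, the 2 mice farthest from the median of Npy. Without each mouse in turn that r ran from 0.659 (Hydroxyurea 1) to 0.926 (Control 4). Cck and Penk had r = -0.761 (exact permutation p = 0.031, adjusted 0.465; rho = -0.691, exact permutation p = 0.0694), which was 0.098 with quantile scaling and 0.667 with normexp. With quantile scaling 1 pair passed, Cck and Crh (r = 0.942, exact permutation, adjusted p = 0.00446). In the scaled log2 values used for the other pairs, Cck and Crh had r = -0.035 (exact permutation p = 0.936). Over the alternatives the smallest adjusted p ran from 0.00446 to 0.802. Both groups are pooled here, and 4 mice a group are too few to read r within each.

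The genes whose values followed each member most closely over the same 8 mice are given as a description, out of 15344 genes. For Crh it was Ccr10 (r = 0.970), for Pdyn Dagla (r = 0.993), for Npy Ubr7 (r = 0.986) and for Tac2 Kif9 (r = 0.952). Cck followed Cplx2 (r = 0.994) and had 256 genes with r over 0.9. Sst had 4 such genes, led by Serpina1a (r = 0.931). Scaled Cck was highest (7.70) in Hydroxyurea 2, whose array had the lowest 75th percentile (1052). It was lowest (7.07) in Control 3, whose array had the highest (2417). The part of scaling in the r values of Cck was not tested. Vip followed Ndufa9 (r = 0.968), Penk followed Fam149a (r = 0.977), Tac1 followed Clcc1 (r = 0.967) and Cort followed Defb36 (r = 0.951). Every member had at least 4 genes with r over 0.9 among the 15344, and the 8 arrays share a slide and a scaling. How many of 15344 genes would pass 0.9 over 8 mice without any relation was not computed, so these counts show no relation by themselves.

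Receptors of these peptides were read as a list of 23 genes, of which 20 were tested, 8 lower and 12 higher, with a median difference of 0.08. None passed after adjustment in limma. At an unadjusted p under 0.05, 1 was lower and 1 higher, against 6.36% and 3.53% of all genes. Sstr5, a somatostatin receptor, was higher by 0.33 ± 0.13 (SE; limma adjusted p = 0.494), with overlap between groups. Adcyap1r1, which binds Vip weakly beside its own ligand, differed by 0.12 ± 0.06. Vipr1, a receptor for Vip, differed by -0.21 ± 0.08 (limma adjusted p = 0.494), but a second Vipr1 probe gave 0.35. For Npy, Npy1r differed by -0.16 ± 0.10, Npy5r by -0.01 ± 0.12 and Npy2r by -0.02 ± 0.35 (SE). The other somatostatin receptors, Sstr1, Sstr2, Sstr3 and Sstr4, had differences from -0.11 ± 0.20 to 0.10 ± 0.12 with their brightest probes, and a second Sstr1 probe gave -0.35. Cckbr, the brain cholecystokinin receptor, differed by 0.27 ± 0.25. The opioid receptors Oprk1 and Oprm1 differed by 0.38 ± 0.21 and 0.18 ± 0.18, Oprd1 by far less than its SE of 0.20, and their intervals included 0. Tacr1 and Tacr3, the receptors of substance P and neurokinin B, differed by 0.07 ± 0.34 and 0.22 ± 0.37, while Tacr2 gave 0.41 ± 0.27 with 1 probe and -0.08 with another. Crhr1 differed by 0.03 ± 0.12 and Crhr2 by 0.45 ± 0.29, where Hydroxyurea 4 (0.27) stood above all others. Vipr2 had the widest interval, 1.16 ± 0.74 (SE), and its highest value (-0.23) was in Hydroxyurea 3, which also had the highest score of thalamus and habenula markers (0.32). Whether neighbouring tissue takes part in these receptor values was not tested. With median centring the list had 10 lower and 10 higher.

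**Figure D4:**
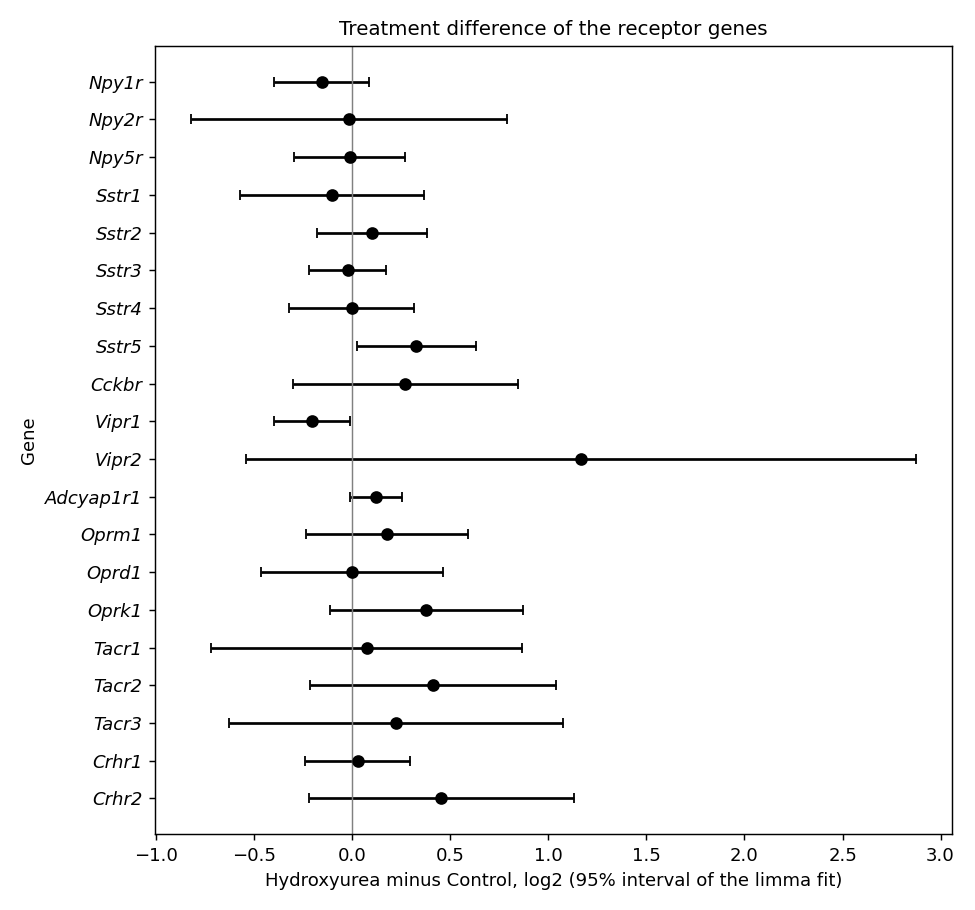
Difference of Hydroxyurea from Control mice in log2 units for the 20 receptor genes tested (horizontal axis), with the 95% interval of the limma fit. The intervals of Sstr5 and Vipr1 exclude 0 before adjustment, and the interval of Vipr2 runs from -0.55 to 2.87.

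Genes that cut, amidate and package the precursors were measured as a list of 26, all tested, with 12 lower and 14 higher and a median of 0.01. None passed in limma after adjustment. Furin, a precursor-cutting protease, was the 1 gene higher at an unadjusted p under 0.05, against 3.53% of all genes. Its groups did not overlap, with 0.54, 0.51, 0.46 and 0.51 in the Control mice and 0.61, 0.66, 0.65 and 0.69 in the treated mice (difference 0.15 ± 0.05, limma adjusted p = 0.477), although with median centring they did overlap. Chgb, a granule protein, differed by -0.13 ± 0.07, Pcsk6 by -0.14 ± 0.08, Pcsk1n by 0.17 ± 0.11, Pam, the amidating enzyme, by 0.15 ± 0.14 and Cpz by 0.42 ± 0.22 (SE). With median centring 20 of the 26 were lower, where 70.4% of all genes were below 0.

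Of 34 other neuropeptide genes, 27 were tested, 7 lower and 20 higher, with a median of 0.12 and none past the adjusted threshold in limma. At an unadjusted p under 0.05, 2 were lower and 3 higher, against 6.36% and 3.53% of all genes. Nmb, neuromedin B, read 1.14, 1.43, 1.27 and 1.45 in the Control mice and 1.12, 1.02, 1.04 and 0.88 in the treated mice, without overlap except with quantile scaling (difference -0.30 ± 0.09, limma adjusted p = 0.464). A second Nmb probe gave -0.26. Calca, the calcitonin gene-related peptide gene, differed by 0.54 ± 0.16 (limma adjusted p = 0.464), Calcb by 0.40 ± 0.18, Npw by -0.39 ± 0.15 and Gal by 0.27 ± 0.11 (SE). Trh, thyrotropin-releasing hormone, differed by 1.57 ± 0.61 (limma adjusted p = 0.491) and was highest in Hydroxyurea 3 (0.01). The 15 peptidase genes had 7 lower and 8 higher, none past the threshold in limma. Tpp2 was lower without overlap except with normexp (-0.29 ± 0.08, limma adjusted p = 0.452), Ace differed by 0.81 ± 0.44, Enpep by -0.32 ± 0.18, Ide by 0.10 ± 0.08, Prep by 0.08 ± 0.06 and Dpp3 by 0.07 ± 0.05 (SE).

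Marker lists of cell types and neighbouring regions were read, and a list does not settle which tissue its RNA came from. Some genes stand in more than 1 list. Drd2 is in the striatal list and in that of CA3 and mossy cells, and Calb2 in the interneuron list and in that of CA3 and mossy cells. Of hippocampal markers, 8 of 8 CA1 pyramidal, 9 of 10 CA3 and mossy cell and 11 of 12 dentate granule cell genes were bright enough to be tested. So were 12 of 12 neocortex and subiculum genes, 10 of 10 choroid plexus genes and 16618 of all 21368 genes named. These counts therefore do not set the hippocampus apart from its neighbours. Markers of interneurons, the cells that make several of these peptides, had 6 lower and 15 higher of 21, with scores of -0.16 to 0.04 in Control and -0.02 to 0.11 in treated mice. Htr3a, a serotonin receptor of interneurons that include Vip cells, was higher without overlap except with median centring (0.40 ± 0.12, limma adjusted p = 0.467), and Dlx6, Dlx1 and Maf differed by 0.30 ± 0.14, 0.38 ± 0.28 and 0.37 ± 0.27. With median centring that list had 10 lower and 11 higher. Immediate early genes, which respond to activity, had 11 lower and 3 higher of 14 (14 lower with median centring), a median of -0.23, and scores of -0.02 to 0.14 in Control and -0.27 to 0.14 in treated mice. With median centring, which moved all genes down, these scores did not overlap. They were then 0.0053 to 0.22 in Control and -0.28 to -0.01 in treated mice. Nor did they overlap without Control 1 and Hydroxyurea 2, at 0.03 to 0.19 and -0.22 to -0.07. Hydroxyurea 2 had the highest score of the treated mice (0.14). The scores overlapped as first given, with quantile scaling (-0.02 to 0.15 and -0.26 to 0.12) and with normexp (-0.03 to 0.12 and -0.23 to 0.12). Arc differed by -0.48 ± 0.15 and Dusp6 by -0.30 ± 0.09 (limma adjusted p = 0.472 for each), Egr1 by -0.22 ± 0.09 and Nr4a1 by -0.37 ± 0.15. Hydroxyurea 1 had the lowest score of the immediate early genes and the lowest Crh, Npy, Sst and Cort of the 8 mice, and the part of activity in those values was not tested.

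Scores of markers of neighbouring regions were mostly higher in treated mice. The 9 striatal genes had scores of -0.20 to -0.02 in Control and 0.03 to 0.16 in treated mice, without overlap, with 2 lower and 7 higher. The 10 hypothalamic genes, all higher except 1 with normexp and 1 without Control 1 and Hydroxyurea 2, had scores of -0.47 to -0.11 in Control and -0.01 to 0.72 in treated mice, without overlap, where Hydroxyurea 1 was highest. With median centring the striatal and the hypothalamic scores both overlapped. With every mouse kept, the thalamus and habenula scores overlapped, at -0.21 to 0.0068 in Control and -0.22 to 0.32 in treated mice. Control 1 was the highest of the Control mice and Hydroxyurea 2 the lowest of all mice. Leaving out these mice removed the overlap, at -0.25 to -0.17 in Control and 0.10 to 0.28 in treated mice. Otp and Sim1 were not tested, and Nkx2-1 was well above background on only 2 Control and 2 treated arrays. Of the 12 hypothalamic genes listed, 8 are also among the other neuropeptides above. Thalamus and habenula genes had 1 lower and 9 higher of 10, amygdala genes 1 lower and 5 higher of 6, and neocortex and subiculum genes 6 lower and 6 higher. The choroid plexus list was higher in all 10 genes, with a median of 1.30 and scores of -2.30 to 0.91 in Control and -1.21 to 2.80 in treated mice, which overlap widely. Neuropeptide genes are expressed outside the hippocampus too, and the part of neighbouring tissue in the values of all 10 genes was not tested.

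**Figure D5:**
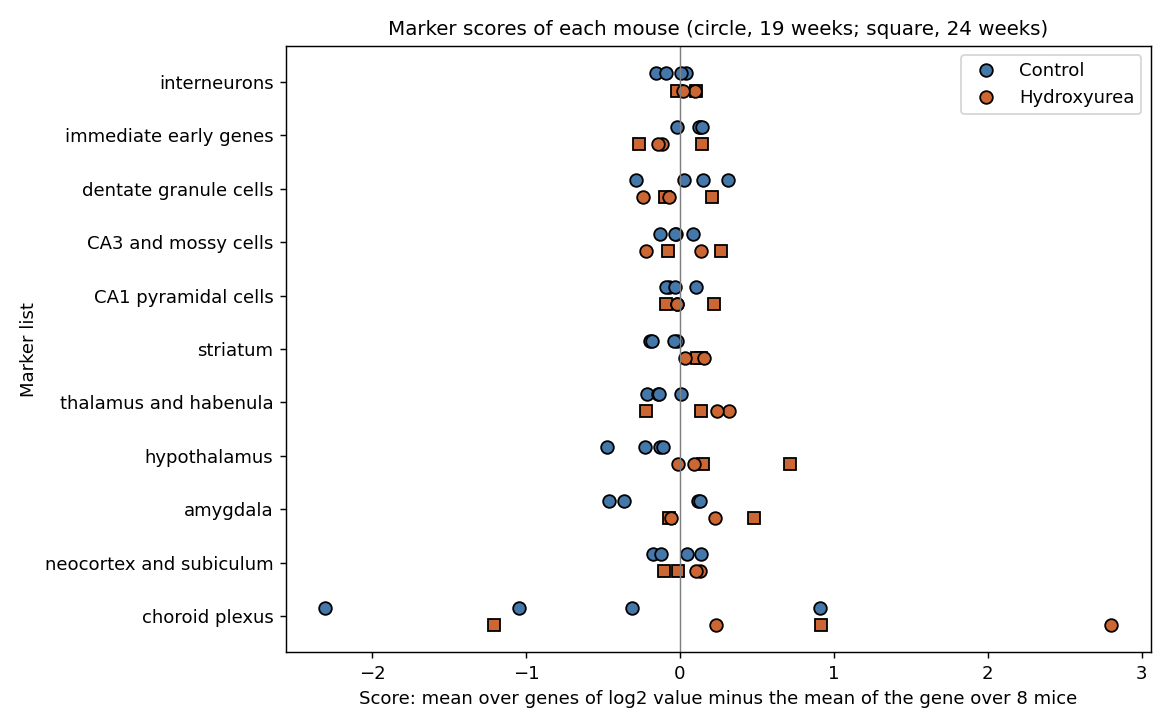
Score of each marker list (vertical axis) in every mouse, averaging over genes how far the log2 value lies from its mean in the 8 mice (horizontal axis), with circles for 19 weeks and squares for 24 weeks. Control and Hydroxyurea scores do not overlap for striatum and hypothalamus with this scaling, and choroid plexus spans from -2.30 to 2.80.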

How the data were processed

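Hippocampal RNA of 8 mice was read on 1-colour arrays of 62976 features, on 1 slide scanned once. Control arrays lay in slide row 1 and Hydroxyurea arrays in row 2, so row and group cannot be told apart. Per the file headers, Feature Extraction 12.0.3.1 gave each spot a deposited, background-subtracted signal intensity, with no normalization across arrays. Median signal intensities come from the same files. The authors' deposited value table is a z score of log signal (recomputed to within 0.0050, column medians -0.21 to -0.17) and was used for counts only.

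Scaled log2 values were computed from the deposited intensity as described above. Spots marked as outliers were left out and spots of a probe averaged. RefSeq accessions named 28331 of 55681 probes that are not controls. In 5754 genes with over 1 probe the brightest was used. Testing required a probe well above background on at least 4 arrays and values on at least 6. Per array, 59.6% to 76.7% of probes were well above background and 0 spots were saturated, and 4 arrays per group limit precision. Array pairs correlated at 0.981 to 0.997.

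Treatment was tested in limma 3.58.1 (R 4.3.3; lmFit, eBayes), two-sided, adjusted over 16618 genes, and ages with 3 group means. Correlations used exact permutation in Python 3.11.15. The fit was tested on simulated data. The members and lists were chosen with earlier results of these data known. Named genes are all members and main receptors, the 6 of smallest p per pathway list, up to 4 per marker list, and the nearest genes by r, of which the text gives part. Header coordinates use mm9, so no gene coordinates are given besides promoter windows of GRCm38.p6. Alternatives were quantile, median and normexp (offset 50) scaling, the value table, filters, probe rule, age, replicate block, trend, array weights and leaving out arrays. Normexp on the median signal, leaving out Control 1 with Hydroxyurea 2, and reading group overlap under each scaling, were chosen after seeing the data. The labels do not say which mice shared cages. Some items are not reported here.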

Additional observations from a re-analysis of the deposited data

Results flagged for a closer look

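Dixon's criterion was applied to 52 groups of 4 mice, and chance marks about 1 group in 20. It marked 2 here. Tac1 in Control 1 was 1.734, against 2.25 to 2.34 in the other Control mice, with a gap of 0.844 of the range. The immediate early gene score of Control 2 was -0.02, against 0.125 to 0.143 in the other Control mice, with a gap of 0.889 of the range.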

How the results depend on the processing

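In limma, 0 of the genes and 0 of the neuropeptide genes passed for treatment in any of the 21 alternatives, and 7 to 9 of the 10 were lower in each. At an unadjusted p under 0.05 the 10 held 1, against 9.89% of all genes in either direction. They held 3 with median centring (12.8% of all genes), 5 with array weights (18.6%), 2 with normexp (12%), age as a covariate (7.05%), a variance trend (10.5%) or without both Control 1 and Hydroxyurea 2 (14%), and 1 to 3 without each mouse (6.68% to 15.2%). Crh stayed lower, from -0.35 to -0.23 (adjusted p 0.132 to 0.732). With the replicate number as a block, 0 genes passed and Crh was -0.27 (adjusted p 0.605); the numbers did not pair the mice (r -0.211 to 0.2, and 1 of 4 Control mice correlated best with its own number). With median centring 90.8% of the genes with an unadjusted p under 0.05 were lower, against 64.3%, and the median of all genes was -0.086.

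Signs turned as follows, and the cause was not tested. For treatment, Cck was -0.1061 with quantile scaling, -0.0415 with median centring, -0.069 with normexp, -0.0499 with age as a covariate or in 19-week mice, -0.0307 with array weights, -0.0343 without both arrays and -0.0772 to 0.0981 without each mouse. Sst was -0.0641 with median centring, -0.0001 with normexp, -0.0257 with array weights and -0.0376 to 0.0939 without each mouse. Vip was 0.0416 with age as a covariate or in 19-week mice, 0.054 with array weights and 0.0279 without both arrays. Penk was -0.2084 to 0.0089 without each mouse. For age, Cck was -0.0143 with quantile scaling, -0.0197 with normexp, -0.0819 without both arrays and -0.0819 to 0.444 without each mouse. Tac1 was 0.0053, 0.0086 and -0.0762 to 0.0583 under quantile scaling, normexp and without each mouse. Tac2 was -0.074 with median centring, -0.0357 without both arrays and -0.2553 to 0.2774 without each mouse. Npy was -0.2836 to 0.1184 and Cort -0.3779 to 0.2264 without each mouse. Without each mouse, 0 to 7 genes passed for age, 1 without Hydroxyurea 3 and 7 without Hydroxyurea 4, where the lone mouse is assumed to vary like the others. Cck and Penk had r of 0.098 with quantile scaling and 0.667 with normexp. With quantile scaling 1 pair passed, Cck and Crh (r = 0.942, exact permutation adjusted p = 0.00446). That pair had r = -0.035 in the main scaled log2 values (exact permutation p = 0.936). The smallest adjusted p over the alternatives was 0.00446 to 0.802. Slide and scan could not be a block, with 1 of each. Normexp on the mean signal was not run.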
